A study of Mus musculus with 4 samples.

Results

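The cytosolic ribosomal protein genes code for the protein parts of the large and small ribosomal subunits. Their RNA was measured on 4 Affymetrix arrays of sorted mouse bone marrow cells. Members were the genes whose probe sets carried a single symbol made of Rpl or Rps and a number, with the S6 kinases and pseudogenes left out, together with Rplp0, Rplp1, Rplp2 and Rpsa. This gave 63 of the 19938 genes with a probe set of their own, 38 of the large and 25 of the small subunit. Of a list of 46 large subunit proteins, 33 were members, 11 had only probe sets shared with other genes and 2 were not named by the annotation. Of 31 small subunit proteins, 21 were members, 5 had only shared probe sets and 5 were not named. The members also held 6 paralogues (Rpl3l, Rpl7l1, Rpl10l, Rpl39l, Rps4l and Rps27l) and 3 genes outside both the core and the paralogue lists (Rpl32l, Rps23rg1 and the Rps19-binding protein gene Rps19bp1).

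All mice were of the C57BL/6 strain background. The Hdac3-null group had 2 arrays of LSK/Flt3- cells with the genotype Vav-Cre/Hdac3 Flox/-, in which the Vav promoter, active in blood cells, drives Cre and 1 Hdac3 allele is floxed over a null allele. The wild-type group had 1 array of LSK/Flt3- cells and 1 of LSK/Flt3+ cells. LSK cells are the lineage-negative, Sca-1-positive and Kit-positive marrow fraction that holds blood stem cells and early progenitors, and Flt3 marks those that have left the stem cell state. Cells sorted from 5 to 30 mice were pooled, and the mice's ages are not stated here. Nor is it stated whether the null arrays came from separate mice, so a p-value covers the spread between these samples alone, and that spread may be technical. Hdac3, the deleted gene, was at a log2 level of 5.71 and 5.04 on the null arrays, 6.18 in wild-type LSK/Flt3- cells and 6.33 in the LSK/Flt3+ sample, a difference of -0.81 ± 0.38 (SE) from wild-type LSK/Flt3- cells with a limma adjusted p of 1. Whether its probes lie in the deleted part is not known here, so this does not check the labels.

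A ribosome holds a single copy of nearly every one of these proteins, and cells make them in step with ribosomal RNA. The large subunit joins amino acids into protein and the small subunit reads the messenger RNA. In blood formation the family is known from Diamond-Blackfan anaemia, in which loss of 1 copy of a ribosomal protein gene blocks the making of red cells. The messenger RNAs of many members begin with a C followed by a run of pyrimidines, the 5′ terminal oligopyrimidine tract, through which the kinase mTOR sets their translation.

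The start of these genes can be read from RefSeq promoters on GRCm38.p6, which held 51 of the 63 members. A C followed by at least 4 pyrimidines began at the annotated start, on the gene's strand, in 10 of the 51 (19.6%), against 2.67% of 17491 protein-coding genes. A C followed by at least 6 pyrimidines began within 25 bases of the start in 29 members (56.9%), against 27.8% of protein-coding genes. The windows printed here hold the 15 bases before and the 15 bases from the annotated start, so that the second part of each lies in the first exon. Capitals mark the tract that begins at the start. Rps15a (chr7:118116133-118116162, minus strand), Rps10 (chr17:27635230-27635259, minus), Rps18 (chr17:33955651-33955680, minus), Rpl14 (chr9:120571502-120571531, plus) and Rplp2 (chr7:141447636-141447665, plus) are shown as members with a tract. Rps9 (chr7:3704026-3704055, plus) and the paralogue Rpl10l (chr12:66284387-66284416, minus) are shown for their differences from wild-type LSK/Flt3- cells. These were the largest below and above among members with the same sign on both null arrays. Neither has a tract that begins at its annotated start. In Rps9 a C followed by at least 6 pyrimidines begins shortly before the start and runs across it, so it has a tract within 25 bases.
Rps15a: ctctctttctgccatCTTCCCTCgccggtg
Rps10: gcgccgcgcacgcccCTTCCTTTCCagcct
Rps18: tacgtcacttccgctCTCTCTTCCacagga
Rpl14: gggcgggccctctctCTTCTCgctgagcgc
Rplp2: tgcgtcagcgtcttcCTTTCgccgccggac
Rps9: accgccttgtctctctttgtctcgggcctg
Rpl10l: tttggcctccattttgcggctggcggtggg

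Other motifs were searched on both strands of the 300 bases from 250 before to 50 after the start. The Ets family core CCGGAA was in 26 of the 51 members (51.0%) and in 20.9% of protein-coding genes. The YY1 core AAGATGG was in 5 (9.8%, against 7.18%) and the TATA box TATAAA in 6 (11.8%, against 14.8%). A match of letters is a description and not a site. The median log2 difference of the null mean from wild-type LSK/Flt3- cells was 0.01 over the 29 members with a tract near the start and 0.03 over the other 22.

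No ribosomal protein gene changed by the test in the Hdac3-null cells. Against wild-type LSK/Flt3- cells 0 of the 63 members passed limma's adjusted p of 0.05 in either direction, where 0.0201% of all genes passed as higher and 0.0% as lower. Against wild-type LSK/Flt3+ cells 0 passed, where 0.0351% passed as higher and 0.281% as lower. The lowest limma adjusted p of a member was 1 in both comparisons, and over all processing settings tried it was 0.897 and 0.675. At an unadjusted p under 0.05, 1 member (Rpl10l) was higher than in wild-type LSK/Flt3- cells, against 1.1% of all genes, and 0 were lower, against 1.3%. The counts against wild-type LSK/Flt3+ cells were 0 higher, where 1.13% of all genes were, and 0 lower, where 2.31% were. On both null arrays, 0 members reached a 2-fold difference from either wild-type array. The shares of all genes past that fold were 0.251% higher and 0.381% lower than wild-type LSK/Flt3- and 0.261% higher and 1.08% lower than wild-type LSK/Flt3+ cells. The median standard error of a member's difference was 0.29 on the log2 scale (0.25 to 0.44). This is the error of a single gene and does not apply to the medians of the lists. Both comparisons use the same null arrays and are not independent.

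The median difference of the null mean from wild-type LSK/Flt3- cells was 0.03 for the large subunit and below 0.01 in size for the small subunit, beside 0.09 for all genes. The 2 null arrays stood on opposite sides. On null replicate 1 the medians were -0.06 (large) and -0.12 (small), with 43 of the 63 members below wild-type LSK/Flt3- cells. On null replicate 2 both were 0.09, with 41 members above. Over all genes both medians were above 0 and the larger was that of null replicate 1, 0.15 against 0.03 on null replicate 2.

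Both null arrays lay above the wild-type LSK/Flt3- array in 15 members (23.8%), where 41.3% of all genes did, and below it in 17 (27.0%), where 19.9% did. Among the 540 genes with a mean level of at least 10, a band that holds 48 of the 63 members, the shares were 24.3% and 28.9%, near those of the members. Against wild-type LSK/Flt3+ cells both null arrays lay above in 8 members (12.7%, against 35.0% of all genes) and below in 28 (44.4%, against 25.1%), and in the high band the shares were 35.9% and 22.8%. Both null arrays lay above both wild-type arrays in 5 members (7.94%), Rpl10, Rpl10l, Rpl39l, Rps3 and Rps15a, where 23.0% of all genes and 18.0% of the 540 did. They lay below both in 16 (25.4%), among them Rpl7a, Rpl21, Rpl22, Rplp0, Rps9, Rps12 and Rps20, where 11.7% of all genes and 14.6% of the 540 did.

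**Figure D1:**
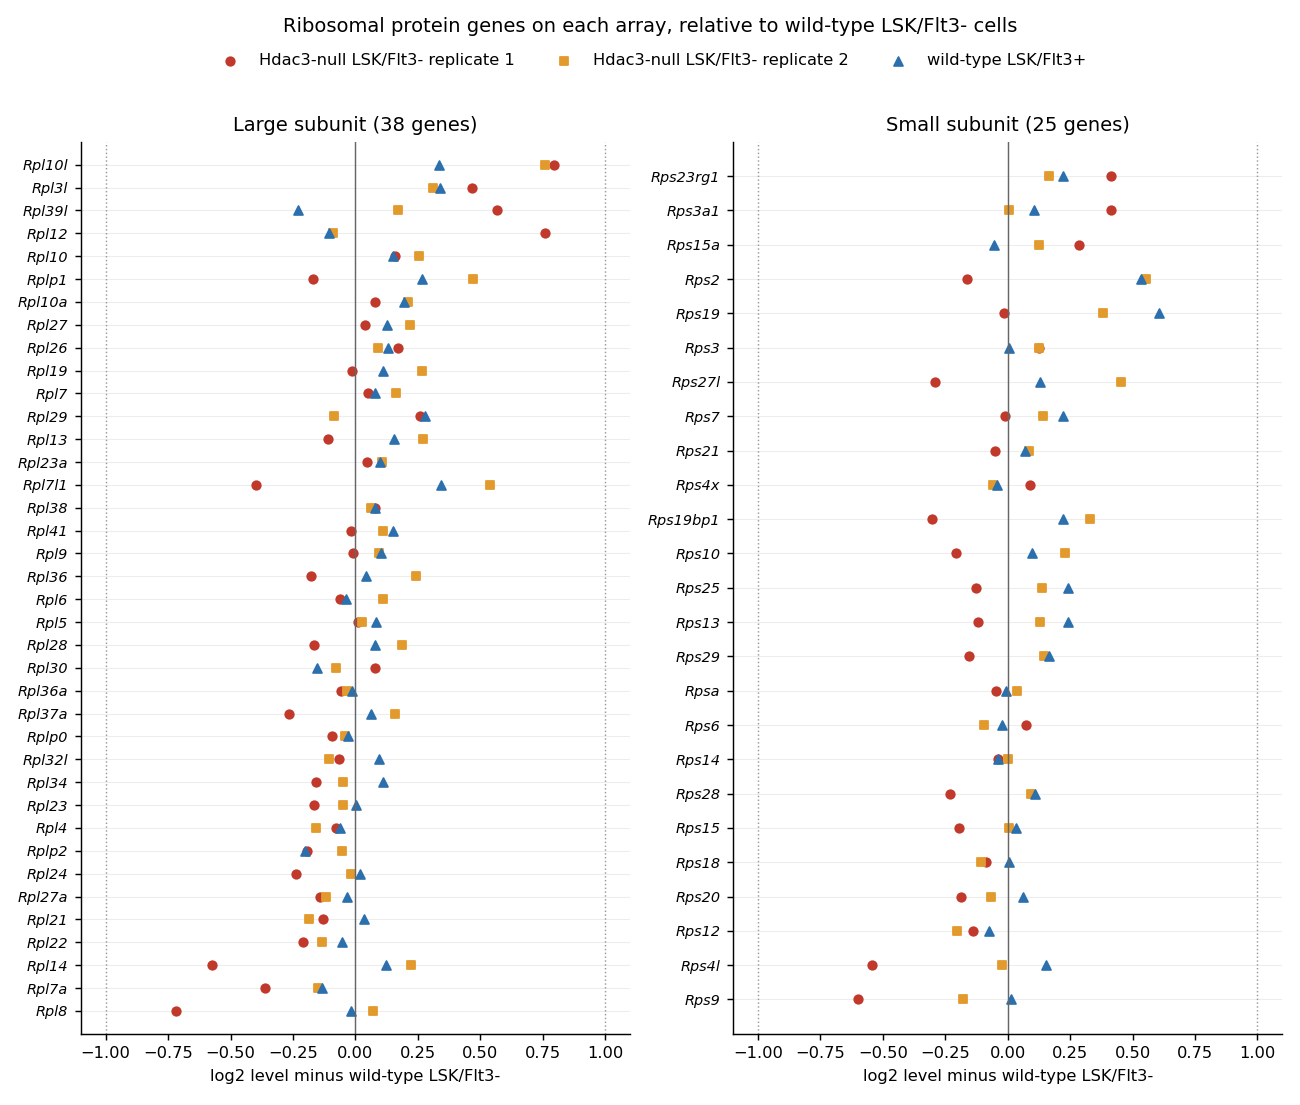
Log2 level of each member on null replicate 1 (circles), null replicate 2 (squares) and wild-type LSK/Flt3+ cells (triangles) minus its level in wild-type LSK/Flt3- cells, with large subunit genes left and small subunit genes right, each sorted by the null mean. Dotted lines mark 2-fold; no point reaches them, and null replicate 1 spreads wider than the other arrays.

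The ribosomal stalk, which recruits and drives the translation factors, has all 4 of its listed genes among the members. Rplp0, which anchors the stalk, was at 12.60 and 12.65 on the null arrays, 12.69 in wild-type LSK/Flt3- cells and 12.66 in the LSK/Flt3+ sample. All 4 arrays lay within 0.09 of each other. Rplp1, an acidic stalk protein, was at 11.66 and 12.30 on the null arrays and at 11.83 and 12.09 on the wild-type arrays in the same order. The null replicates lay on either side of both wild-type arrays. Rplp2, its partner, was at 8.99 and 9.13 on the null arrays, 9.19 in wild-type LSK/Flt3- cells and 8.99 in the LSK/Flt3+ sample. Rpl12, which sits at the stalk base, was at 6.94 on null replicate 1 and at 6.09, 6.18 and 6.07 on null replicate 2 and the wild-type arrays. Null replicate 1 alone was high for Rpl12, and the difference from wild-type LSK/Flt3- cells was 0.33 ± 0.41 (SE). Rpl12 and Rplp2 had 1 probe set each, with mean levels of 6.32 and 9.07. The core genes had medians of 11.77 to 11.92 on the arrays. How well these 2 sets read their transcripts was not tested.

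Of the proteins around the exit of the peptide tunnel, 4 of 8 were measured (Rpl19, Rpl22, Rpl23a and Rpl26), with a median of 0.10 from wild-type LSK/Flt3- cells and 0 of 4 past the test. Rpl22, whose loss is known to disturb T cell development, was at 10.08 and 10.15 on the null arrays, 10.29 in wild-type LSK/Flt3- cells and 10.23 in the LSK/Flt3+ sample. Its groups did not overlap, but the difference of -0.17 ± 0.32 (SE) from wild-type LSK/Flt3- cells was smaller than its error. Rpl26 was at 11.65 and 11.58 on the null arrays and at 11.48 and 11.62 on the wild-type arrays.

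Among other large subunit genes, the members lowest against wild-type LSK/Flt3- cells on both null arrays were Rpl7a, Rpl22, Rpl21 and Rpl27a. Rpl7a was at 10.98 and 11.20 on the null arrays, 11.35 in wild-type LSK/Flt3- cells and 11.21 in the LSK/Flt3+ sample. The difference was -0.25 ± 0.30 (SE), and the gene's lowest-mean probe set gave 0.06. Rpl21 (-0.16 ± 0.28) and Rpl27a (-0.13 ± 0.27) were also below on both null arrays, by less than their errors. For Rpl21 the mean of its 9 probe sets gave a difference that was above 0.

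The core large subunit gene with the largest difference above wild-type LSK/Flt3- cells on both null arrays was Rpl10, which joins the subunit late and lies near the peptidyl transferase centre. Rpl10 was at 12.11 and 12.20 on the null arrays, 11.95 in wild-type LSK/Flt3- cells and 12.10 in the LSK/Flt3+ sample. Against wild-type LSK/Flt3+ cells the lowest large subunit members on both null arrays included Rpl34 (-0.21 ± 0.36), Rpl29 (-0.19 ± 0.35), Rpl21 (-0.19 ± 0.28) and the gene Rpl32l (-0.18 ± 0.34). Rpl30 was 0.15 ± 0.36 above on the same scale. The single probe sets of Rpl30 and Rpl34 had mean levels of 8.13 and 8.27, low for core genes. None of these members passed limma's test.

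In the small subunit head, which clamps the messenger RNA and meets the transfer RNAs, 10 of 14 listed genes were measured. Their median was -0.04 from wild-type LSK/Flt3- and -0.15 from wild-type LSK/Flt3+ cells, where 9 of the 10 lay below 0, and 0 passed the test. Without null replicate 1 the second median was -0.06, with 8 of 10 below. Of all 19938 genes, 8593 lay below 0 against wild-type LSK/Flt3+ cells, and 10288 without null replicate 1. Rps12 was at 12.41 and 12.35 on the null arrays, 12.55 in wild-type LSK/Flt3- cells and 12.47 in the LSK/Flt3+ sample. Rps20 was at 12.17 and 12.28 on the null arrays and at 12.35 and 12.41 on the wild-type arrays. For both genes the null arrays lay below both wild-type arrays. Over the 14 probe sets of Rps12 the difference from wild-type LSK/Flt3- cells ranged from -0.30 to 0.12. Rps3, which lines the channel where messenger RNA enters, was at 11.87 on both null arrays, 11.74 in wild-type LSK/Flt3- cells and 11.75 in the LSK/Flt3+ sample, a difference of 0.13 ± 0.28 (SE).

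The body and platform of the small subunit were measured through 11 genes, with medians of 0.01 and below 0.01 in size from wild-type LSK/Flt3- and LSK/Flt3+ cells. Rps9, a protein of the messenger RNA entry channel, was at 11.16 and 11.58 on the null arrays, 11.76 in wild-type LSK/Flt3- cells and 11.77 in the LSK/Flt3+ sample. The difference from wild-type LSK/Flt3- cells, -0.39 ± 0.31 (SE), was the largest of the small subunit in either direction, with a limma adjusted p of 1. The other probe set of Rps9 gave 0.03, so the direction rests on the brighter set. Rps15a was at 10.17 and 10.01 on the null arrays, 9.88 in wild-type LSK/Flt3- cells and 9.83 in the LSK/Flt3+ sample, and Rps13 was at 11.31 and 11.56 against 11.43 and 11.67. Rps3a1, which lies near the messenger RNA exit, was at 11.75 on null replicate 1 and at 11.34, 11.34 and 11.44 on null replicate 2 and the wild-type arrays, so that null replicate 1 alone was high. Rpsa, which is also known as the laminin receptor precursor, was at 12.69 and 12.78 on the null arrays, 12.74 in wild-type LSK/Flt3- cells and 12.73 in the LSK/Flt3+ sample.

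Of 16 genes known for Diamond-Blackfan anaemia or the 5q deletion, 8 were members (Rps7, Rps10, Rps14, Rps19, Rps29, Rpl5, Rpl26 and Rpl27). Their median was 0.04 from wild-type LSK/Flt3- cells with 6 above and 2 below 0, and -0.08 from wild-type LSK/Flt3+ cells with 2 above and 6 below, and 0 passed in either comparison. Rps19, the gene most often mutated in Diamond-Blackfan anaemia, was at 9.90 and 10.29 on the null arrays, 9.91 in wild-type LSK/Flt3- cells and 10.52 in the LSK/Flt3+ sample. The wild-type LSK/Flt3+ array was the highest, and the null difference was 0.18 ± 0.34 (SE) from wild-type LSK/Flt3- and -0.42 ± 0.34 (SE) from wild-type LSK/Flt3+ cells. Rpl27 was at 12.31 and 12.49 on the null arrays and at 12.27 and 12.40 on the wild-type arrays. Rps7 was at 11.50 and 11.66 on the null arrays and at 11.52 and 11.74 on the wild-type arrays. The null pair differed by 0.18 for Rpl27 and 0.15 for Rps7, and the wild-type arrays by 0.13 and 0.22.

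The paralogues, which replace or resemble a core protein and are often limited to few tissues, had a wider range over the arrays, which was not tested. The median range over the 4 arrays was 0.77 for the 6 paralogues, 0.23 for the 54 core genes and 0.46 for all genes. The paralogues all had a mean level under 10, lower than most core genes. Other genes with mean levels under 6, from 6 to 8 and from 8 to 10 had median ranges of 0.44, 0.52 and 0.49. Rpl10l, a testis copy of Rpl10, was at 4.10 and 4.06 on the null arrays, 3.31 in wild-type LSK/Flt3- cells and 3.64 in the LSK/Flt3+ sample. Both null arrays lay above both wild-type arrays, and the difference of 0.78 ± 0.28 (SE) from wild-type LSK/Flt3- cells had an unadjusted p of 0.0186 and a limma adjusted p of 1. Rpl39l was at 4.05 and 3.66 on the null arrays, 3.49 in wild-type LSK/Flt3- cells and 3.26 in the LSK/Flt3+ sample. Rpl3l, a muscle copy of Rpl3, was at 4.55 and 4.39 against 4.08 and 4.42. These 3 and the retroposed copy Rps23rg1 (0.29 ± 0.34 above wild-type LSK/Flt3- cells) are the 4 members with a mean level under 6. Whether they stood above background is not known here. The other 11516 genes of that range had a median of 0.25 above wild-type LSK/Flt3- cells on null replicate 1 and of 0.03 on null replicate 2. Rps4l, a copy of Rps4x, was at 5.85 and 6.37 on the null arrays, 6.40 in wild-type LSK/Flt3- cells and 6.55 in the LSK/Flt3+ sample. Its difference of -0.28 ± 0.37 (SE) from wild-type LSK/Flt3- cells became 0.06 in its other probe set.

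Between the wild-type arrays the ribosomal protein genes were slightly higher in LSK/Flt3+ cells. With 1 array a group this difference has no replicate check and no test. In 45 of the 63 members (71.4%) the LSK/Flt3+ array was above the LSK/Flt3- array, where 56.6% of all genes and 40.0% of the 540 genes with a mean level of at least 10 were. The medians were 0.08 for the large and 0.10 for the small subunit, beside 0.04 for all genes and -0.04 for the 540. Under other scalings of the arrays the medians stayed above 0 and above that of all genes, from 0.004 to 0.07 for the large subunit and from 0.02 to 0.10 for the small, and the members above 0 numbered 34 with arrays centred on their medians (44.4% of all genes), 39 after quantile normalization (52.0%) and 43 after cyclic loess (50.1%). In the small subunit head 9 of 10 genes were higher in LSK/Flt3+ cells. The share of all genes at least 2-fold apart was 0.923% higher and 0.176% lower, and 0 members were.

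Single members varied more in this comparison. The largest differences above LSK/Flt3- cells were Rps19 at 0.61, Rps2 at 0.53 and Rpl7l1, a nucleolar relative of Rpl7, at 0.34. Rps2, a protein of the messenger RNA entry site, was at 11.80 and 12.51 on the null arrays, 11.96 in wild-type LSK/Flt3- cells and 12.49 in the LSK/Flt3+ sample. Null replicate 1 sat with the LSK/Flt3- array and null replicate 2 with the LSK/Flt3+ array. The lowest of the 3 Rps2 probe sets in this difference gave 0.17. The largest differences below were Rpl39l at -0.23, Rplp2 at -0.20 and Rpl30 at -0.15. Among the marker lists, the 7 macrophage markers summed to a linear level of 1077.6 in the LSK/Flt3+ sample and to 159.9 to 199.2 in the other 3. The 7 early lymphoid markers summed to 3649.9 against 464.9 to 1808.2. They include Flt3, on which the cells were sorted, so part of that difference was set by the sort. The part of these lists in the difference of the ribosomal protein genes was not tested. In bulk samples fewer cells of a type and less RNA per cell cannot be told apart.

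**Figure D2:**
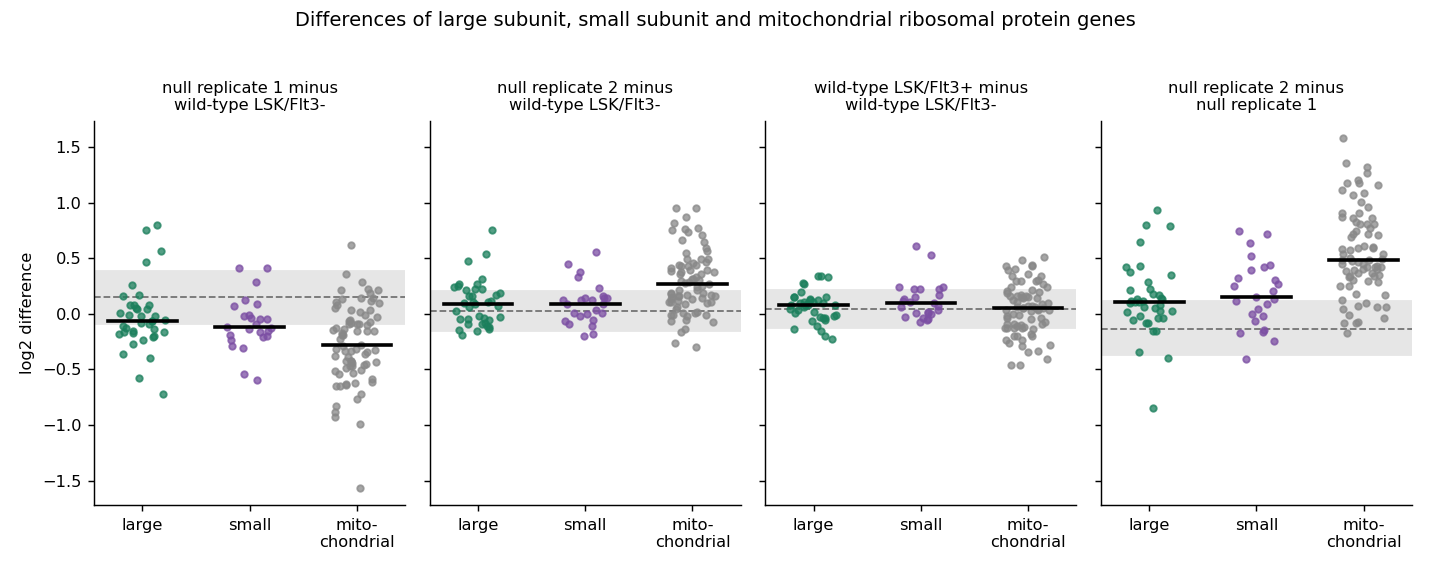
Log2 differences of the large subunit, small subunit and mitochondrial ribosomal protein genes for 4 pairs of arrays; each point is a gene, black bars are medians, the dashed line is the median of all 19938 genes and the grey band spans their quartiles. The medians of the cytosolic genes lie below 0 on null replicate 1 and above 0 on null replicate 2, and the mitochondrial genes show the widest shift between the null replicates.

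The replicates of the null group differed in most members, and null replicate 1 stood apart from all 3 other arrays. Null replicate 2 was above null replicate 1 in 45 of the 63 members (71.4%), where 35.0% of all genes and 54.1% of the 540 genes of high level were. The medians were 0.11 for the large and 0.15 for the small subunit, beside -0.14 for all genes. Null replicate 1 was the lowest of the 4 arrays in 37 members (58.7%), where 19.4% of all genes and 38.5% of the 540 were. No member was 2-fold apart, where 1.46% of all genes were that much higher and 1.36% that much lower. The standard deviation of the members' differences was 0.32 between the null replicates, and null replicate 1 was nearly as far from the wild-type arrays, at 0.28 from LSK/Flt3- and 0.31 from LSK/Flt3+ cells. The pairs without null replicate 1 were closer, at 0.20 for null replicate 2 against wild-type LSK/Flt3-, 0.14 for it against wild-type LSK/Flt3+ and 0.15 for the wild-type arrays. For all genes together the wild-type pair had the lowest value, 0.31, the null replicates stood at 0.43, and null replicate 1 against wild-type LSK/Flt3+ cells had the highest, 0.48.

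Rpl7l1 had the largest difference between the null replicates, at 7.66 and 8.59, with 8.05 in wild-type LSK/Flt3- cells and 8.39 in the LSK/Flt3+ sample. Rpl14 followed, at 10.26 and 11.06 on the null arrays and 10.83 and 10.95 on the wild-type arrays. Rpl8, a protein close to the peptidyl transferase centre, was at 10.60 and 11.39 on the null arrays and at 11.32 and 11.30 on the wild-type arrays. In all 3, null replicate 1 was the lowest array and null replicate 2 the highest. Rpl12 (-0.85), Rps3a1 (-0.41) and Rpl39l (-0.39) had the largest differences the other way.

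The shift between the null replicates differed between bands of mean level, without a steady trend, and between scalings of the arrays. Null replicate 1 had a median of 5.60 over all probe sets, against 5.30 to 5.36 on the other arrays, and a standard deviation over genes of 1.80, against 1.87 to 1.92. With members left out, genes with a mean level under 6 were lower on null replicate 2 by a median of 0.22. Those from 6 to 8, 8 to 10 and 10 to 11 were higher by 0.02, 0.07 and 0.05. Among the genes from 11 to 12 the median was 0.15 for the 23 members and -0.04 for the 123 others, and from 12 to 14 it was 0.10 for the 22 members and -0.16 for the 15 others. Relative to all genes the members' median was 0.25 higher on null replicate 2 in the deposited values, 0.01 after quantile normalization and below 0 (-0.003) after cyclic loess. The members above null replicate 1 numbered 58 of 63 with arrays centred on their medians, where 54.0% of all genes were above it, 45 after quantile normalization (60.9%) and 37 after cyclic loess (53.9%). The last count is near the share of all genes.

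Markers of other cells also differed between the null replicates. The 5 megakaryocyte markers measured summed to a linear level of 569.0 on null replicate 1 and 1951.7 on null replicate 2, beside 785.1 and 887.6 on the wild-type arrays. Within this list Pf4 (2.73), Ppbp (2.31) and Vwf (1.18) were higher on null replicate 2 on the log2 scale. Itga2b (0.13) and Gp9 (-0.03) differed little. The 7 of 10 erythroid markers measured summed to 2702.9 and 5358.2, beside 5752.1 and 4275.9, with Car1, an erythroid carbonic anhydrase, at log2 levels of 6.44 and 10.92 on the null arrays. The 9 of 10 granulocyte-monocyte markers measured summed to 7293.3 and 8759.5 on the null arrays, beside 3477.1 and 4410.0 on the wild-type arrays. Of these, 7 lay above wild-type LSK/Flt3- cells on both null arrays. Mpo, at 12.12 and 12.30 on the null arrays, had the highest level in the list. Against the LSK/Flt3+ sample Mpo, Elane, Prtn3, Ctsg, Ms4a3 and Cebpe were higher on both null arrays. Csf1r (-2.34), Ly86 (-2.50) and Fcgr3 (-0.62) were lower on both. The 6 mast cell and basophil markers summed to 633.6 and 1277.7 on the null arrays, beside 542.7 and 1028.6. The 6 T and NK cell markers summed to 534.5 and 1201.2, beside 419.6 and 592.2. Within this list only Nkg7 was higher on null replicate 2, at log2 levels of 8.58 and 10.06 on the null arrays. Cd3e, Cd3g, Cd8a, Cd4 and Ncr1 were lower on null replicate 2, and the median difference of the list was -0.14. The other sums on null replicates 1 and 2 were those of the early lymphoid (668.3 and 464.9, Flt3 included), B cell (229.1 and 283.8), macrophage (190.6 and 159.9) and endothelial (385.5 and 329.5) markers. Among the sort markers, Kit was at 10.77 and 10.36 on the null arrays and 10.25 and 10.11 on the wild-type arrays, Flt3 was at 7.84 and 7.02 on the null arrays and 9.18 and 10.07 on the wild-type arrays, and Ly6a, the gene of Sca-1, was not measured. The part of these cells in the differences of the ribosomal protein genes was not tested.

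**Figure D3:**
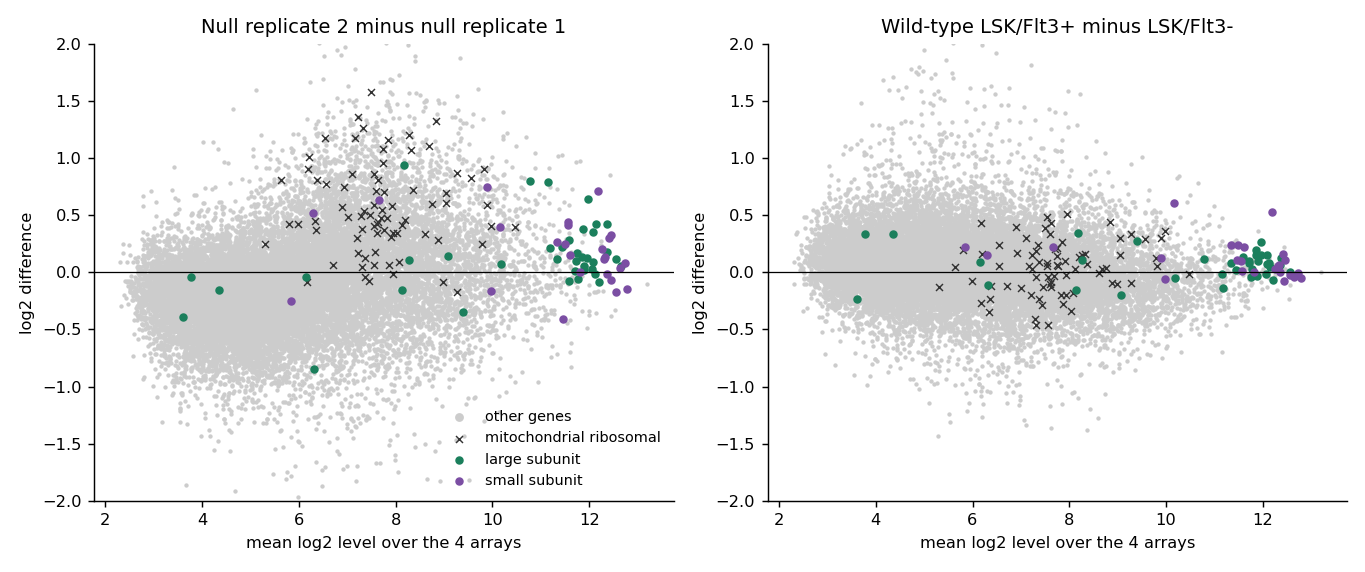
Log2 difference between the null replicates (left) and between the wild-type arrays (right) against the mean log2 level over the 4 arrays, for all genes (grey, members and mitochondrial ribosomal genes marked). The axis ends at 2, beyond which lie 25 genes on the left and 35 on the right; most cytosolic members sit at the high end, above 0 in 45 of 63 in each panel.

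Several probe sets report on the same gene, which gives a look at the error of a single value. The 63 members had 219 probe sets, 39 members had more than 1, and 19 sets held the same 4 values as another set of their gene. In 169 of the 219 sets null replicate 2 was above null replicate 1, and 30 of the 39 members had this in every set. The sign of the difference from wild-type LSK/Flt3- cells was the same in every set of only 21 of the 39. Rpl13, with 9 sets, ranged from 0.38 to 1.04 between the null replicates, and all 9 lay above 0. Rpsa, with 5 sets, ranged from 0.08 to 0.84. The range over the 4 arrays was larger in the lowest-mean set than in the highest-mean set in 27 of 38 members, with medians of 0.33 and 0.22.

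**Figure D4:**
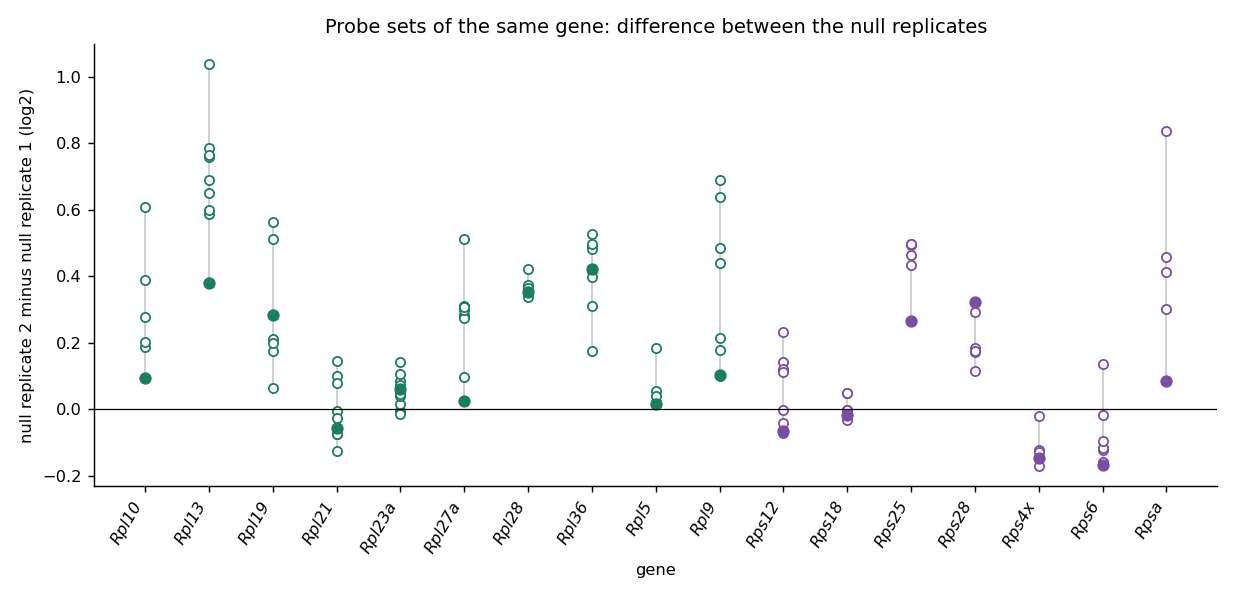
Log2 difference between null replicate 2 and null replicate 1 for each distinct probe set of the 17 members with at least 5 distinct sets; filled points are the highest-mean set of each gene, green for the large and purple for the small subunit. The sets of Rpl13 lie between 0.38 and 1.04 and those of Rpsa between 0.08 and 0.84, and in both the highest-mean set gives the lowest value.

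The genes around the ribosome did not pass the test either. Of the mitochondrial ribosomal protein genes 77 were measured and 0 passed in either null comparison. Their median was -0.02 from wild-type LSK/Flt3- cells, made up of -0.28 on null replicate 1 and 0.27 on null replicate 2. Between the null replicates 71 of 77 were higher on null replicate 2, with a median of 0.49, beside 0.11 for the cytosolic large subunit. The share of all genes higher on null replicate 2 was 35.0%. Mrpl52 had the largest difference, at 6.23 and 7.50 on the null arrays, 7.80 in wild-type LSK/Flt3- cells and 7.75 in the LSK/Flt3+ sample (-0.93 ± 0.50, SE).

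Of the ribosome assembly factors 71 were measured and 0 passed in either null comparison. Their median was -0.03 from wild-type LSK/Flt3- and 0.13 from wild-type LSK/Flt3+ cells, where 55 of 71 lay above 0. Of all 19938 genes 11344 lay above 0 against wild-type LSK/Flt3+ cells, with a median of 0.05. Between the wild-type arrays, untested, 60 of 71 were lower in LSK/Flt3+ cells, with a median of -0.18, while the cytosolic ribosomal protein genes had a median of 0.08. Of all genes 8601 were lower there, with a median of 0.04. Pes1, which processes the large subunit's ribosomal RNA, was at 7.57 and 7.81 on the null arrays, 8.44 in wild-type LSK/Flt3- cells and 7.62 in the LSK/Flt3+ sample. The null arrays and the wild-type LSK/Flt3+ array lay together below the wild-type LSK/Flt3- array (-0.75 ± 0.36, SE). Gnl3l, a nucleolar GTPase, was at 7.04 and 7.16 on the null arrays, 7.70 in wild-type LSK/Flt3- cells and 6.96 in the LSK/Flt3+ sample. Utp4, a factor of early small subunit assembly, was at 9.01 and 9.56 on the null arrays, above 8.71 and 8.56 on the wild-type arrays.

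Genes of ribosomal RNA transcription (20 measured, median 0.01 from wild-type LSK/Flt3- cells, 10 above and 10 below) and regulators of translation such as the mTOR pathway (19 measured, median below 0.01 in size, 9 above and 10 below) were spread on both sides. Translation factors and other genes known for a 5′ terminal oligopyrimidine tract (22 measured) had a median of 0.07, with 15 above and 7 below. None of the members of these lists passed limma's adjusted p in either comparison. Fau, which codes for the ribosomal protein S30 fused to a ubiquitin-like protein, was at 10.68 and 11.59 on the null arrays, 10.95 in wild-type LSK/Flt3- cells and 11.43 in the LSK/Flt3+ sample. Null replicate 1 was its lowest array and null replicate 2 its highest, as for Rpl14.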

How the data were processed

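RNA of sorted cells was extracted with the PerfectPure kit, biotin-labelled and hybridised, per the labels' protocols. The authors deposited log2 values per probe set, and the submitters' processing notes name RMA and affy 1.23. RMA includes a normalization between arrays, yet the array medians were unequal, so the scaling of the values is not settled. The arrays' small number limits the precision. Scan batches and detection calls were not used here.

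Of 35556 probe sets the annotation gave 1 symbol to 21789, several to 1621 and listed none for 12146; the last 2 kinds entered no test. Each gene took its highest-mean probe set. All 4 arrays entered 1 fit of 3 groups in limma 3.58.1 (R 4.3.3) with a mean-dependent prior, two-sided, with Benjamini-Hochberg adjustment over 19938 genes at 0.05. Only the null pair gives a residual degree of freedom (1), beside 9.01 from the prior, and the fit takes the spread of the null pair for the single wild-type arrays too. Wild-type arrays, and null replicates, were compared without a test. Marker levels were summed after removing the log2.

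Members, role lists and markers were chosen with earlier results of these data known. Genes were named by rule: Rplp0, Rplp1, Rplp2 and Rpsa, up to 4 members per comparison, subunit and direction with the largest difference of the same sign on both null arrays, the 3 largest differences each way within the wild-type and null pairs, and the largest of each list. Rpl23a, Rps18, Rps10, Rpl13 and the genes counted as above or below both wild-type arrays were named after their values were seen. Alternatives were array scaling, the probe set taken, a filter on low values, the prior, single null arrays and the core genes alone.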

Additional observations from a re-analysis of the deposited data

How the results depend on the processing

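No alternative gave a member an adjusted p under 0.05: 0 members were called in either null comparison with arrays centred, quantile or cyclic loess scaling, the mean or the lowest-mean probe set, a mean level of at least 6, no trend or a robust prior, or with the 54 core genes alone. A single null array leaves no residual degree of freedom, so it gave values without a test. The lowest-mean probe set was added after seeing the data. Of the named differences with the same sign on both null arrays, only those of Rpl21, Rpl7a, Rps4l and Rps9 changed sign under these settings. All were from wild-type LSK/Flt3- cells and all changed with the probe set. Rpl21 was 0.0047 in the mean of its sets. In the lowest-mean set Rpl21 was 0.0751, Rpl7a 0.0590, Rps4l 0.0566 and Rps9 0.0276. The cause was not tested. The sign from wild-type LSK/Flt3- cells also often depended on the null array. Of the 63 members 15 lay above on both null arrays and 17 below on both. In the others the null arrays had opposite signs. Among these were Rpl12 (-0.09 on null replicate 2) and Rps19 (-0.01 on null replicate 1). Larger splits on null replicates 1 and 2 were those of Rpl8 (-0.72 and 0.07) and Rps2 (-0.16 and 0.55). The large subunit's median from wild-type LSK/Flt3- cells was 0.03 in the deposited values and -0.08 with centred arrays, while that of all genes went from 0.09 to -0.02. Relative to all genes it was -0.06 in both and above 0 after quantile (0.04) or cyclic loess (0.05) scaling. The small subunit's was -0.09 in both, -0.01 after quantile and 0.02 after cyclic loess scaling. Medians from wild-type LSK/Flt3+ cells stayed below 0 under these scalings. With null replicate 2 alone the large subunit's was 0.01 and the small subunit's -0.03, and with null replicate 1 alone -0.11 and -0.23. No paired analysis was possible because the wild-type titles carry no replicate numbers and each wild-type group has a single array.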

Other observations

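Probe sets with several gene symbols entered no comparison. Of these, 239 named a member symbol along with others. Their median difference of the null mean was 0.01 from wild-type LSK/Flt3- cells, with 130 above and 109 below 0, and -0.07 from wild-type LSK/Flt3+ cells, with 33 above and 206 below. Between the wild-type arrays it was 0.08, with 182 higher in LSK/Flt3+ cells, and between the null replicates 0.17, with 166 higher on null replicate 2. Sets that name the same gene are not independent of each other.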
